A study of Mus musculus with 12 samples.

Results

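Histamine is made, inactivated and sensed by the products of a small set of genes, and 5 of them were followed here in the newborn visual thalamus of 2 conditional mouse mutants. The set comprised *Hdc*, *Hnmt*, *Hrh1*, *Hrh2* and *Hrh3*, that is 5 of the 24480 genes in the count tables, and its members were found by gene symbol. *Hdc* was selected on its log2 fold changes in the *Sox2* and the *Nr2f1* mutants, which had opposite signs, and the other 4 genes were joined to it by their function. The changes of *Hdc* are therefore given as a description, without a test.

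RNA-seq had been performed on dissected dorsal lateral geniculate nuclei (dLGN, the thalamic relay of vision) at postnatal day 0. The study asked which genes depend on the transcription factors SOX2 and NR2F1 in thalamic neurons. There were 12 libraries, each a pool of dLGNs from 3 animals of like genotype, in 4 groups of 3. *Sox2* mutants were *Sox2* flox/flox and carried *RORα*-Cre, *Nr2f1* mutants were *Nr2f1* flox/flox and carried *RORα*-Cre, and in each line the controls were littermates, flox/flox or flox/+ for the same gene and without Cre. In *RORα*-Cre, the recombinase follows the coding part of *Rora* as an IRES cassette. According to the study, it deletes in the sensory thalamus, in cells that are already postmitotic. Which cells of the nucleus had recombined was not measured in these libraries. Because the Cre allele was present in mutants only, an effect of the allele and of the deletion cannot be told apart within a line. The labels of the *Nr2f1* controls also name the Cre allele next to a note of no Cre; the description in the study's methods was followed. Libraries are called here by the number or letter in the tables: *Sox2* controls 1, 2 and 3, *Sox2* mutants 1, 3 and 4, *Nr2f1* controls B, D and E, and *Nr2f1* mutants A, B and C.

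Library totals ranged from 39293470 to 50095336 counts. Levels are in CPM, counts per 1000000 counts of the library, after TMM scaling of all 12 libraries, and a gene was called differentially expressed (DEG) at an adjusted p-value (FDR) below 0.01 in the quasi-likelihood F-test of edgeR. The deleted genes fell in their own lines, *Sox2* by 1.40 on the log2 scale (edgeR FDR 4.83e-05, SE 0.10) and *Nr2f1* by 1.57 (edgeR FDR 0.000348, SE 0.14). *Sox2* was also lower in *Nr2f1* mutants, at 245 ± 33.9 against 359 ± 16.2 CPM (SD, n = 3 each; log2 fold change -0.55, edgeR FDR 0.00635, SE 0.09), whereas *Nr2f1* in *Sox2* mutants stayed short of the threshold (-0.39, edgeR FDR 0.0559, SE 0.13). *Rora*, the host gene of Cre, changed by -1.96 (edgeR FDR 2.07e-05, SE 0.12) in *Sox2* mutants and by -0.25 (edgeR FDR 0.204, SE 0.11) in *Nr2f1* mutants. All 12 markers of thalamic glutamatergic neurons had counts in every group, with a summed level between 2523 and 4108 CPM over the libraries. The dissected tissue thus carried thalamic markers, and its purity was not measured.

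In the brain, histidine decarboxylase (*Hdc*) makes histamine from the amino acid histidine with pyridoxal phosphate as cofactor, and the amine is packed into vesicles by the vesicular monoamine transporter (*Slc18a2*). Tuberomammillary neurons of the hypothalamus and mast cells are its well known sources. Histamine N-methyltransferase (*Hnmt*) inactivates it, and monoamine oxidase then degrades the methylated product. H1 receptors (*Hrh1*) signal through Gq and phospholipase C, H2 receptors (*Hrh2*) raise cyclic AMP through Gs, and H3 receptors (*Hrh3*) act through Gi, often on the terminals that release histamine or other transmitters.

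On GRCm38.p6 (RefSeq), *Hdc* lies at chr2:126593659-126624025, *Hnmt* at chr2:24002911-24049758 and *Hrh3* at chr2:180099465-180104484, all on the minus strand. *Hrh1* at chr6:114397936-114483298 and *Hrh2* at chr13:54191970-54236182 lie on the plus strand. *Hrh2* shares its span with 1 other annotated gene, Gm16578, whose reads could not be told apart by strand here; the other 4 members overlap no annotated gene.

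The upstream sequences of *Hdc* and of *Slc18a2* are shown because, of the synthesis and storage genes tested, these fell most in *Sox2* mutants against controls. Each runs over the 250 bases before the annotated start, 5′ to 3′ on the gene's strand, from RefSeq. The *Hdc* window is chr2:126618679-126618928 on the minus strand and lies within the span of the gene, whose annotation begins further upstream. The *Slc18a2* window is chr19:59260628-59260877 on the plus strand.
*Hdc*: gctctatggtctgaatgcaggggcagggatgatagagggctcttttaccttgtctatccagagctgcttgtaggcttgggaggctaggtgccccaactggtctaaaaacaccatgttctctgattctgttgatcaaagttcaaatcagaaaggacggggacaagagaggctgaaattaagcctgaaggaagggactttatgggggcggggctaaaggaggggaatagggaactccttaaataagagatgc
*Slc18a2*: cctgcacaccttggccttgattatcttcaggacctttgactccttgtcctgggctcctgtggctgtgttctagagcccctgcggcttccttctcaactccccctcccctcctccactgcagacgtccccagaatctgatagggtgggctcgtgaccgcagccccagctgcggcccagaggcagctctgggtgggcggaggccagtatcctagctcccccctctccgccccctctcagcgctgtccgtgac
Each window was searched on both strands, with 50 bases after the start added, for the SOX core motifs ACAAAG and ACAATG and for the nuclear receptor half-site AGGTCA, and matches in the printed bases would stand in capitals. There was none in either printed stretch. In the bases after the start, ACAAAG occurred once, in *Hdc*, beginning at base 29. Of all 32851 promoter windows of this length, 18.7% held ACAAAG, 12.6% held ACAATG and 16.3% held AGGTCA. A match or its absence describes these letters in this window and says nothing of binding.

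*Hdc* was the most abundant member in control dLGN and the one whose RNA differed most between groups. The *Sox2* controls 1, 2 and 3 had 21.7, 25.2 and 26.3 CPM (976, 1081 and 1067 counts). *Sox2* mutants 1, 3 and 4 had 2.70, 3.20 and 4.49 CPM (112, 140 and 204 counts). Every mutant library thus lay far below every control library, and the highest mutant held 0.207 of the lowest control. In *Nr2f1* controls B, D and E, *Hdc* was at 23.7, 21.2 and 21.9 CPM, close to the controls of the other line. *Nr2f1* mutants A, B and C had 28.7, 34.9 and 34.3 CPM. All 3 lay above all 3 controls, although the lowest, mutant A, was only 1.21-fold of the highest control. Groups without overlap were common over all tested genes, with 37.9% in the *Sox2* and 28.7% in the *Nr2f1* line.

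**Figure D1:**
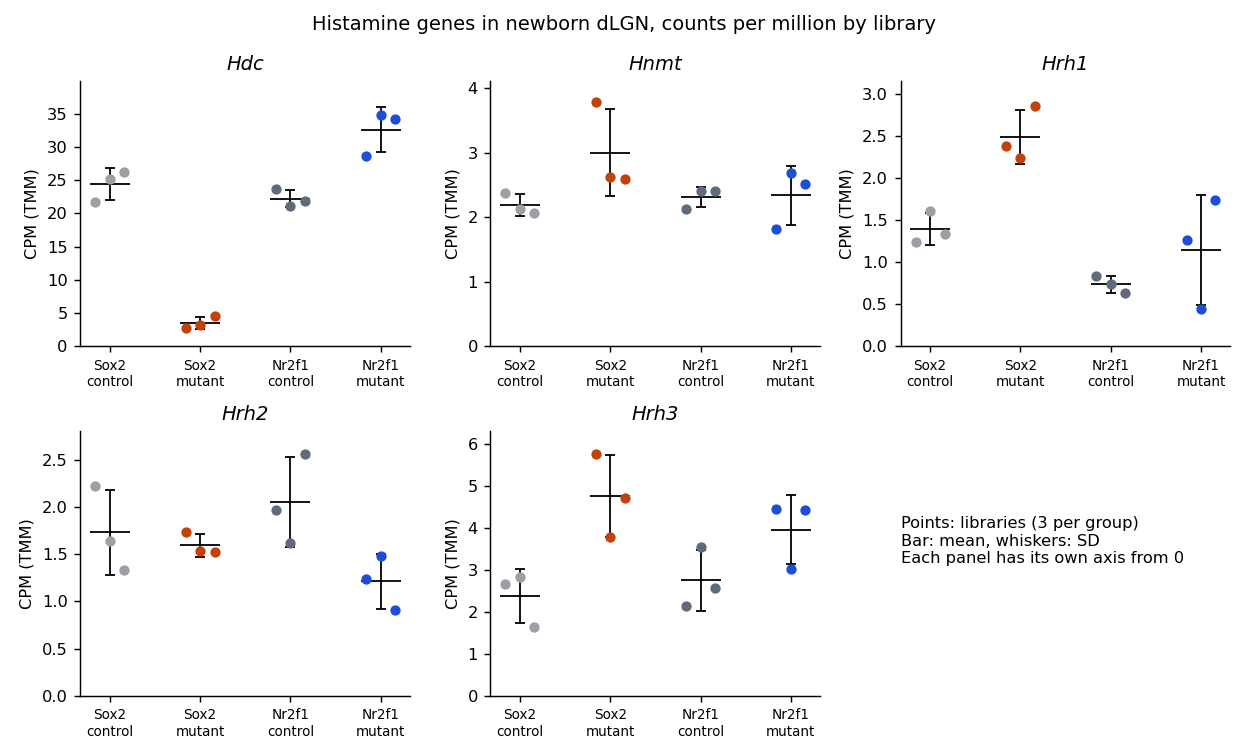
CPM (TMM-scaled) of the 5 histamine genes, 1 point per library (3 in each of the 4 groups), with the mean and SD; each panel has its own linear axis from 0. *Hdc* sits at 2.70 to 4.49 CPM in *Sox2* mutants and at 28.7 to 34.9 CPM in *Nr2f1* mutants, against 21.2 to 26.3 CPM over the 6 controls, while the other 4 genes lie at or below 5.76 CPM in every library.

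The mean of *Hdc* was 3.46 ± 0.92 CPM in *Sox2* mutants against 24.4 ± 2.41 CPM in their controls, 14.2% of the control level (SD, n = 3 each). Among the *Nr2f1* libraries, mutants had 32.6 ± 3.40 and controls 22.2 ± 1.31 CPM, or 147% of the control level. The fitted log2 fold changes were -2.82 (SE 0.17) and 0.55 (SE 0.09), and their difference, *Sox2* line minus *Nr2f1* line, was -3.37 (SE 0.20). These values selected the gene. They place *Hdc* as number 5 by size of decrease among 15602 genes tested in *Sox2* mutants and as number 1101 by size of increase among 15600 in *Nr2f1* mutants. In these bulk samples, fewer cells of a type and less RNA per cell cannot be told apart.

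Levels of cell markers were set beside *Hdc*, since mast cells also make histamine. Over all tested genes, edgeR called 8.08% in *Sox2* and 2.54% in *Nr2f1* mutants. Of 10 mast cell markers, in *Sox2* libraries 5 and in *Nr2f1* libraries 4 had enough counts to be tested, and none was called in either line with edgeR; at an unadjusted p below 0.05 the numbers were 3 and 1, and 0 passed in either line with DESeq2. The proteases *Cpa3*, *Tpsb2* and *Cma1* were present in every library, at 5 to 349, 16 to 660 and 11 to 303 counts. *Mcpt4*, a chymase, ranged from 0 to 41 counts and *Tpsab1*, a tryptase, from 0 to 17 counts. The receptor genes *Mrgprb1*, *Mrgprb2*, *Ms4a2* and *Fcer1a* were at or near 0, with at most 9, 12, 4 and 6 counts in a library, and in the *Sox2* line *Fcer1a* had no count at all. *Kit*, which neurons also express, made up most of the list at 24.0 to 32.1 CPM.

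Without *Kit*, the summed level of the other 9 markers was 1.22 to 3.85 CPM in *Sox2* controls and 1.90 to 8.55 CPM in *Sox2* mutants. In the *Nr2f1* line it was 2.28 to 7.94 CPM in controls and 3.24 to 29.7 CPM in mutants. Mutant C, at 29.7 CPM, had the highest sum of all libraries, and mutant A, at 3.24 CPM, had less than controls D and E. Without mutant C the fitted log2 fold change of *Hdc* was 0.52 (SE 0.10). The part of mast cells in the changes of *Hdc* was not tested. Basophil and neutrophil genes were summed at 0.58 to 35.3 CPM and were highest in *Sox2* control 3 and mutant 4, and 0 of the 3 tested were called in either line with edgeR or DESeq2 or had an unadjusted p below 0.05. Of 5 tuberomammillary markers, *Prph* alone was called, higher in *Sox2* mutants (log2 fold change 1.39, edgeR FDR 0.00745, SE 0.27), and 0 were called in *Nr2f1* mutants (1 with DESeq2), with 3 at an unadjusted p below 0.05 in each line. These were *Prph*, *Maob* and *Gal*, the galanin gene, whose log2 fold change was -0.37 in *Sox2* mutants (edgeR FDR 0.0474) and -1.01 in *Nr2f1* mutants (edgeR FDR 0.0323). The 5 markers summed to 17.5 to 18.1 CPM in *Sox2* controls, 17.5 to 19.4 in *Sox2* mutants, 12.3 to 15.2 in *Nr2f1* controls and 11.2 to 14.5 CPM in *Nr2f1* mutants.

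**Figure D2:**
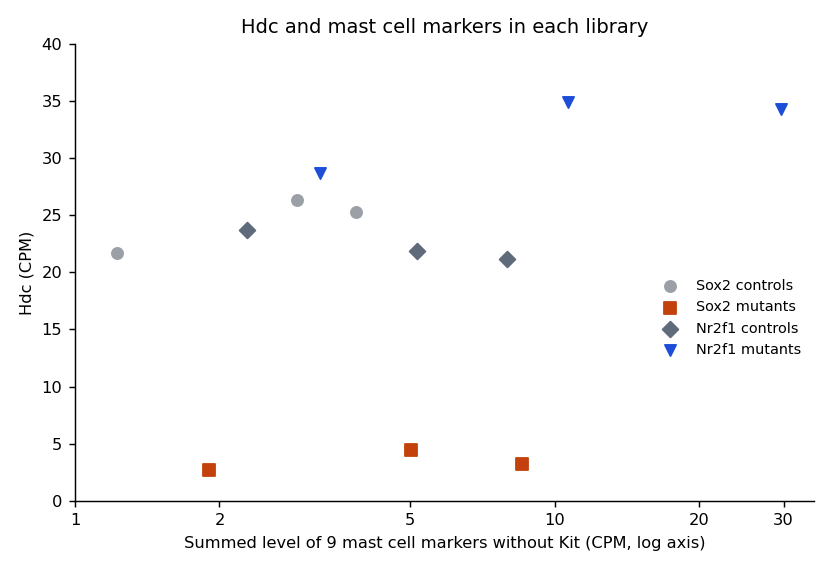
*Hdc* level (CPM, linear axis from 0) against the summed level of 9 mast cell markers without *Kit* (CPM, log axis), 1 point per library and 1 symbol per group. *Sox2* mutants lie between 2.70 and 4.49 CPM of *Hdc* at 1.90 to 8.55 CPM of markers, the 6 controls between 21.2 and 26.3 CPM of *Hdc* at 1.22 to 7.94 CPM of markers, and *Nr2f1* mutants lie at 28.7 CPM or above from 3.24 to 29.7 CPM of markers.

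Marker RNA of other cell types differed between *Sox2* mutants and controls as well, while cell numbers were not measured. Over all tested genes edgeR called 8.08% in *Sox2* and 2.54% in *Nr2f1* mutants. Of 12 thalamic glutamatergic markers, *Rora* among them, 5 were called lower and 1 higher in *Sox2* mutants. Their sums were 2975 to 3553 CPM in *Sox2* controls and 2523 to 2798 CPM in *Sox2* mutants. Of 8 microglial markers, 7 were called higher in *Sox2* mutants (121 to 134 CPM in controls against 248 to 285 CPM). So were 5 of 8 astrocyte markers (1785 to 2167 against 2718 to 3151 CPM). In *Nr2f1* mutants 0 of 8 microglial markers were called with edgeR (4 at an unadjusted p below 0.05 and 2 with DESeq2) and 1 of 8 astrocyte markers was, and of the thalamic markers 3 were called higher and 2 lower, with sums of 3777 to 4108 CPM in controls and 3222 to 3747 CPM in mutants. Sums of 10 GABAergic markers (1 called higher) and of 6 habenular markers (1 called higher, 1 lower) were 141 to 193 and 91.7 to 109 CPM in *Sox2* controls and 225 to 276 and 189 to 230 CPM in *Sox2* mutants. In this line 10 GABAergic and 2 of 5 tested habenular markers had an unadjusted edgeR p below 0.05, and DESeq2 called 7 and 2. Meningeal fibroblast markers ran from 917 to 1419 CPM in *Nr2f1* controls and from 1335 to 3164 CPM in *Nr2f1* mutants. There 0 of 6 were called with edgeR or DESeq2 and 6 had an unadjusted p below 0.05. In *Sox2* controls and mutants their sums were 1211 to 2448 and 1839 to 4108 CPM, also with 0 called. Markers of hippocampus and cortex summed to 57.0 to 84.9 CPM in *Sox2* controls and 51.7 to 129 CPM in *Sox2* mutants. In *Nr2f1* controls and mutants they summed to 74.1 to 88.3 and 129 to 165 CPM. Of these 6 markers edgeR called 1 in each line, *Prox1*, which is in the thalamic list too. None of these markers was at 0 in any group, and their part in the changes of the histamine genes was not tested.

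Genes that mark sex differed between libraries. *Xist*, the RNA of the inactive X chromosome, had 8 counts in *Sox2* control 2, 19 in *Sox2* mutant 1 and 13 in *Nr2f1* control E, and at least 13247 in every other library. In *Nr2f1* mutants it ranged from 23365 to 45823 counts, against 13 to 20346 counts in *Nr2f1* controls. *Nr2f1* mutant A had 0 counts of the Y-linked genes *Ddx3y*, *Eif2s3y*, *Kdm5d* and *Uty*. None of these 5 genes was called in either line with edgeR or DESeq2 or had an unadjusted p below 0.05. In the *Nr2f1* line, however, mutants and controls did not overlap for *Xist* (mutants higher) and *Uty* (mutants lower), as for 28.7% of all tested genes. Without *Sox2* control 2 or mutant 1 the log2 fold change of *Hdc* was -2.79 or -2.67, and without *Nr2f1* control E or mutant A it was 0.54 or 0.64. The part of sex in the differences between groups was not tested.

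*Hnmt*, the enzyme that inactivates histamine inside cells, was not called in either line. Its level was 2.38, 2.13 and 2.07 CPM in *Sox2* controls 1, 2 and 3 and 3.78, 2.63 and 2.60 CPM in *Sox2* mutants 1, 3 and 4. The groups did not overlap, but mutants 3 and 4 were just above control 1, and the log2 fold change of 0.44 (SE 0.21) had an edgeR FDR of 0.160. *Nr2f1* controls B, D and E had 2.14, 2.40 and 2.41 CPM and *Nr2f1* mutants A, B and C had 1.82, 2.69 and 2.52 CPM. Here the mutants lay on both sides of the controls, and the log2 fold change was 0.02 (edgeR FDR 0.966, SE 0.20).

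*Hrh1* was higher in all *Sox2* mutant libraries than in any of their controls, yet short of the DEG threshold. Controls 1, 2 and 3 had 1.25, 1.61 and 1.33 CPM and mutants 1, 3 and 4 had 2.39, 2.24 and 2.86 CPM. The log2 fold change was 0.83 (edgeR FDR 0.0240, SE 0.21). *Nr2f1* controls B, D and E had 0.84, 0.74 and 0.64 CPM, all below the *Sox2* controls, and the lines were not compared by a test. *Nr2f1* mutants A, B and C scattered widely at 1.27, 0.44 and 1.74 CPM (50, 20 and 80 counts). Mutant B was the lowest of the line and the other pair the highest, and the log2 fold change of 0.63 carried an SE of 0.44 (edgeR FDR 0.418).

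*Hrh2* showed no shift in *Sox2* mutants that exceeded the spread of the libraries. Controls 1, 2 and 3 had 2.22, 1.63 and 1.33 CPM and mutants 1, 3 and 4 had 1.74, 1.53 and 1.52 CPM. The mutants fell inside the range of the controls, with a log2 fold change of -0.13 (edgeR FDR 0.749, SE 0.25). In the *Nr2f1* line the controls B, D and E had 1.97, 1.62 and 2.57 CPM and the mutants A, B and C had 1.24, 1.49 and 0.91 CPM. These groups did not overlap, and the log2 fold change was -0.76 (SE 0.26) with an edgeR FDR of 0.115.

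*Hrh3* had the largest difference of the 4 tested members. *Sox2* controls 1, 2 and 3 were at 2.67, 2.83 and 1.65 CPM and *Sox2* mutants 1, 3 and 4 at 5.76, 3.79 and 4.73 CPM. Every mutant exceeded every control and the mean was 2.00-fold that of the controls (log2 fold change 0.99, edgeR FDR 0.0196, SE 0.24). *Nr2f1* controls B, D and E had 2.14, 3.55 and 2.57 CPM and *Nr2f1* mutants A, B and C had 4.45, 3.01 and 4.42 CPM. Mutant B lay below control D, and the log2 fold change of 0.52 (SE 0.23) did not pass (edgeR FDR 0.199).

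**Figure D3:**
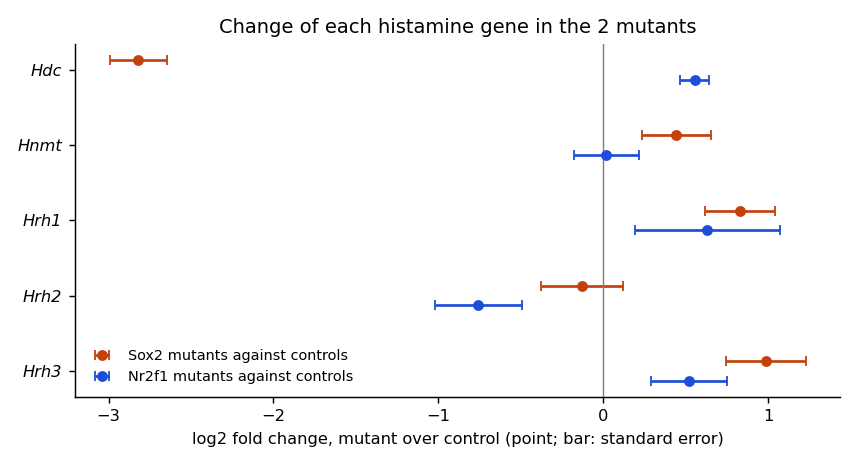
Log2 fold change of each histamine gene, mutants over controls of the same line (points, bars are standard errors of the edgeR fit, 3 against 3 libraries). *Hdc* is at -2.82 in *Sox2* and 0.55 in *Nr2f1* mutants, and *Hrh1* and *Hrh3* lie above 0 in both lines without being called in either.

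Of the 4 members besides *Hdc*, 0 were called in *Sox2* mutants, where 8.08% of the 15602 genes tested with edgeR were called (3.90% higher and 4.19% lower), and 0 in *Nr2f1* mutants, where 2.54% of 15600 were called (1.22% higher and 1.32% lower). At an unadjusted p below 0.05 there were 2 in *Sox2* mutants (*Hrh1* and *Hrh3*) and 2 in *Nr2f1* mutants (*Hrh2* and *Hrh3*). The share of all genes at this unadjusted p is not given here. With DESeq2, the edgeR likelihood ratio test or the edgeR exact test, the same threshold was passed by 2 of 4 in *Sox2* mutants, *Hrh1* (FDR 0.00987 with DESeq2) and *Hrh3* (FDR 0.00104 with DESeq2), and by 0 of 4 in *Nr2f1* mutants. Groups without overlap were found for *Hnmt*, *Hrh1* and *Hrh3* in the *Sox2* line, as for 37.9% of all tested genes, and for *Hrh2* in the *Nr2f1* line, as for 28.7%. The exact permutation test of 3 against 3 libraries gave each of these its smallest possible two-sided p, 0.1, which cannot pass a threshold of 0.05.

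On the log2 scale, the excess of the *Sox2* over the *Nr2f1* change was 0.43 (edgeR FDR 0.513, SE 0.28) for *Hnmt*, 0.20 (edgeR FDR 0.907, SE 0.51) for *Hrh1*, 0.64 (edgeR FDR 0.430, SE 0.36) for *Hrh2* and 0.47 (edgeR FDR 0.591, SE 0.35) for *Hrh3*. None of the 4 was called in this comparison or had an unadjusted p below 0.05, and none passed with DESeq2, whereas 1.44% of 15989 genes were called with edgeR. A difference between the lines was thus not detectable for these genes at 20 to 239 counts a library.

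Per length of the longest GENCODE M21 transcript matched to RefSeq, *Hdc* was the most abundant member in both control groups, at 10.2 ± 1.01 CPM per kb in *Sox2* and 9.30 ± 0.55 CPM per kb in *Nr2f1* controls (SD, n = 3 each). In *Sox2* controls it was followed by *Hnmt* (1.32 ± 0.10), *Hrh3* (0.88 ± 0.24), *Hrh2* (0.62 ± 0.16) and *Hrh1* (0.37 ± 0.05 CPM per kb). Of these neighbours, only the libraries of *Hrh3* and *Hrh2* overlapped. The order was the same in *Nr2f1* controls, where *Hnmt* and *Hrh3* overlapped as well. In *Sox2* mutants *Hdc*, at 1.45 ± 0.39 CPM per kb, no longer stood apart: its libraries overlapped those of *Hrh3* (1.76 ± 0.36), which in turn overlapped those of *Hnmt* (1.81 ± 0.41 CPM per kb). In *Nr2f1* mutants *Hdc* stood at 13.6 ± 1.42 CPM per kb, and *Hrh3* and *Hnmt* overlapped below it. *Hrh4*, the fourth receptor gene, had 0 counts in all 6 libraries of the *Sox2* line and at most 5 in the *Nr2f1* line and was not tested; a count of 0 allows up to 3 counts in a library.

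The genes around the members were taken from lists of 64 genes for histidine supply, cofactor, storage and uptake, oxidative breakdown, receptor coupling, the fourth receptor and other transmitter synthesis. In *Sox2* mutants 56 were tested, of which 5 were called higher and 5 lower (17.9%, against 8.08% of all genes), with a median log2 fold change of 0.16 against 0.00 over all tested genes. In *Nr2f1* mutants 2 of 55 were called higher and 2 lower (7.27%, against 2.54% of all genes; median 0.09 against 0.01). These numbers moved with single libraries: 3 to 16 were called in the *Sox2* line when 1 library was left out (3 without control 2 or mutant 4, 4 without control 1, 5 without mutant 1, 16 without control 3) and 0 to 9 in the *Nr2f1* line (0 without control B or mutant A, 1 without control D, 9 without mutant B).

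Among these lists the largest change in *Sox2* mutants was that of *Slc18a2*, a monoamine transporter gene. Which amines the transporter carried here was not measured. *Slc18a2* had 399, 396 and 402 CPM in *Sox2* controls 1, 2 and 3 and 123, 111 and 133 CPM in *Sox2* mutants 1, 3 and 4, a log2 fold change of -1.71 (edgeR FDR 8.27e-06, SE 0.08), and the call held in all 15 other fits. *Nr2f1* controls B, D and E had 435, 349 and 402 CPM and *Nr2f1* mutants A, B and C had 433, 450 and 381 CPM, with overlapping groups (log2 fold change 0.09, edgeR FDR 0.573, SE 0.09). The 2 changes differed by -1.79 (edgeR FDR 4.56e-06, SE 0.12), called in all 18 other fits. *Slc18a2* was thus lower together with *Hdc* in *Sox2* mutants, and in *Nr2f1* mutants 2 of 3 libraries lay within the range of its controls. Of the other storage and uptake genes, 3 were tested in *Sox2* and 4 in *Nr2f1* mutants, and none was called with edgeR or DESeq2 or had an unadjusted p below 0.05.

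Breakdown and cofactor genes included 2 that were called higher. *Maoa*, the monoamine oxidase A gene, was at 51.6 ± 2.24 CPM in *Sox2* mutants and 32.5 ± 2.05 CPM in controls (SD, n = 3 each; log2 fold change 0.66, edgeR FDR 0.000385, SE 0.07) and had 26.9 ± 1.57 and 34.8 ± 4.91 CPM in *Nr2f1* controls and mutants (log2 fold change 0.37, edgeR FDR 0.0565, SE 0.10). *Maoa* was called in all 15 other fits of the *Sox2* line. *Maob*, the other monoamine oxidase gene, had 1.56 ± 0.08 CPM in *Sox2* controls and 2.66 ± 0.42 CPM in *Sox2* mutants (log2 fold change 0.76, edgeR FDR 0.0272, SE 0.20), and 1.26 ± 0.32 and 2.35 ± 0.21 CPM in *Nr2f1* controls and mutants (log2 fold change 0.90, edgeR FDR 0.0473, SE 0.23). Of 6 breakdown genes tested, edgeR called 1 in *Sox2* and 0 in *Nr2f1* mutants. DESeq2 called 2 and 1, and 4 and 3 had an unadjusted p below 0.05. Over all tested genes edgeR called 8.08% in *Sox2* and 2.54% in *Nr2f1* mutants, and DESeq2 called 2468 and 1112 genes. *Pdxk*, pyridoxal kinase of the pyridoxal phosphate pathway, rose in both lines. Its mean was 87.9 ± 5.04 CPM in *Sox2* mutants against 67.2 ± 2.76 CPM (log2 fold change 0.38, edgeR FDR 0.00501), and 89.5 ± 10.4 CPM in *Nr2f1* mutants against 63.9 ± 1.72 CPM (log2 fold change 0.49, edgeR FDR 0.00703). The *Pdxk* call was lost without *Sox2* control 1 or 2 or mutant 1 or 4 (edgeR FDR 0.0151 to 0.0311), and in the other line without *Nr2f1* control B, D or E or mutant A or C (edgeR FDR 0.0209 to 0.0425). None of the 8 histidine supply genes tested was called with edgeR in either line, where 2 in each had an unadjusted p below 0.05 and DESeq2 called 1 in *Sox2* and 0 in *Nr2f1* mutants.

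Coupling genes moved in both directions. In *Sox2* mutants edgeR called 2 of 11 genes of H1, 4 of 12 of H2 and 1 of 5 of H3 coupling. In *Nr2f1* mutants it called 1 of 10, 2 of 12 and 0 of 5 (for H3, 3 at an unadjusted p below 0.05 and 0 with DESeq2). Over all tested genes it called 8.08% in *Sox2* and 2.54% in *Nr2f1* mutants. With so few genes in a list, these counts are a description. On the H1 side, *Plcb4*, a phospholipase C, fell by 0.78 on the log2 scale in *Sox2* mutants (edgeR FDR 0.000444, SE 0.09), while *Itpr2*, an inositol trisphosphate receptor, rose (0.44, edgeR FDR 0.00451, SE 0.08). Another phospholipase C, *Plcb1*, rose in *Nr2f1* mutants (0.74, edgeR FDR 0.00212, SE 0.10) and was at 0.56 in *Sox2* mutants (edgeR FDR 0.0302, SE 0.15). On the H2 side, the adenylyl cyclase *Adcy9* fell in both lines, by 0.62 in *Sox2* mutants (edgeR FDR 0.00168, SE 0.09) and by 0.54 in *Nr2f1* mutants (edgeR FDR 0.00142, SE 0.06). *Adcy2* (log2 fold change -0.63, edgeR FDR 0.00517) and *Gnal*, the Golf subunit gene (-0.36, edgeR FDR 0.00718), fell in *Sox2* mutants, and *Adcy5* fell in *Nr2f1* mutants (-0.38, edgeR FDR 0.00255). *Adcy7* (0.51, edgeR FDR 0.00424) and the Gi subunit gene *Gnai2* (0.47, edgeR FDR 0.00663) rose in *Sox2* mutants. Any link of the coupling genes to the microglial and astrocyte markers, which were higher there too, was not tested. Of 7 genes of other transmitter synthesis tested in *Sox2* mutants and 6 in *Nr2f1* mutants, none was called with edgeR (4 and 2 at an unadjusted p below 0.05, 2 and 0 with DESeq2). Of these *Th*, tyrosine hydroxylase, stood farthest from 0 in *Sox2* mutants, at 1.60 with an SE of 0.60 (edgeR FDR 0.0894). *Th* had few counts and dropped out where at least 10 were required in every library. Its log2 fold change ran from 0.94 to 2.05 over 14 other fits, with 0 calls. The only coupling gene whose change differed between the mutants was *Plcb4* (-0.65, edgeR FDR 0.00715, SE 0.12), and this call was lost in 10 of 18 other fits, each without 1 library (every library but *Sox2* control 3 and *Nr2f1* mutant C), at an edgeR FDR of 0.0164 to 0.0338. In the *Sox2* line *Plcb4* was called in all 15 other fits, while the calls of *Itpr2*, *Adcy2*, *Adcy7*, *Gnal* and *Gnai2* were lost without control 1, control 2 or mutant 4 (edgeR FDR 0.0175 to 0.0463), among others, and that of *Adcy9* without control 2 (0.0102) or mutant 4 (0.0131). In the *Nr2f1* line *Adcy9*, *Adcy5* and *Plcb1* lost theirs without mutant A (edgeR FDR 0.0115 to 0.0164) or control B, and *Adcy5* and *Plcb1* without control D as well (0.0125 and 0.0130).

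**Figure D4:**
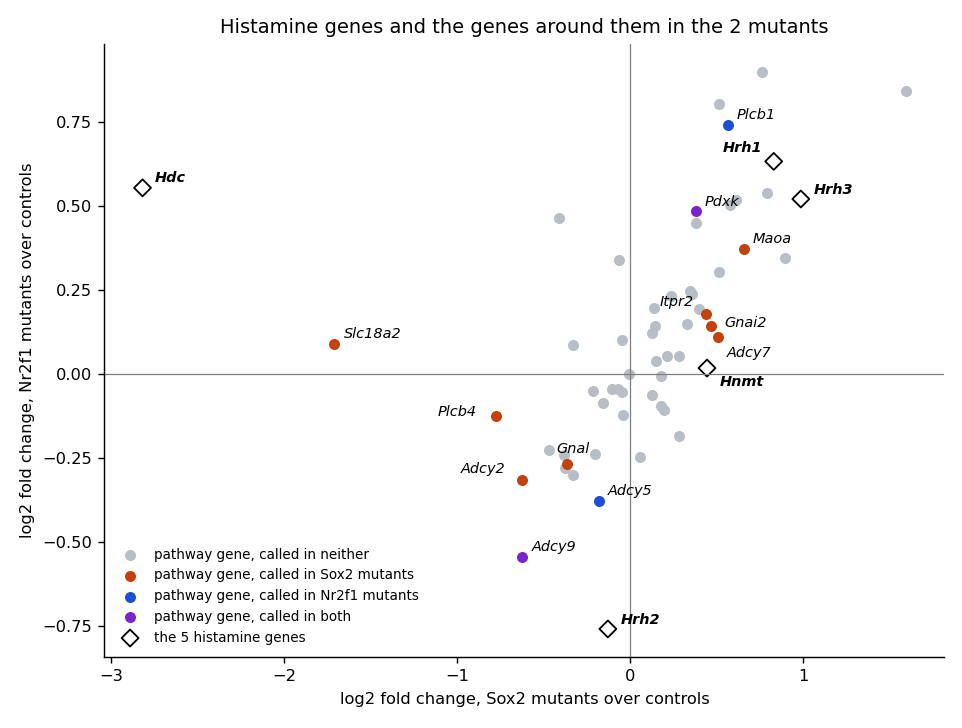
Log2 fold change in *Sox2* mutants (x axis) against that in *Nr2f1* mutants (y axis), each over the controls of its own line, for the pathway genes tested in both lines (circles, coloured by edgeR call at FDR<0.01) and the 5 histamine genes (open diamonds). *Hdc* (-2.82, 0.55) and *Slc18a2* (-1.71, 0.09) stand to the left of the remaining genes, and *Pdxk* and *Adcy9* are called in both lines.

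The genes whose levels followed *Hdc* most closely over the 12 libraries, after each line was centred on its controls, were *Tmem8* (Pearson r = 0.982), *Slc18a2* (0.982), *Ift57* (0.976), *Prkag2* (0.976) and *Tekt5* (0.975), out of 15988 genes. The 12 values come from the same libraries, and the 3 low *Sox2* mutants weigh most in them. The log2 fold changes of these 5 genes were -0.52, -1.71, -1.24, -1.07 and -0.88 in *Sox2* mutants and 0.14, 0.09, 0.07, 0.08 and 0.14 in *Nr2f1* mutants. By rank correlation *Tmem8* (rho = 0.965) was the closest to *Hdc* of the 5, and *Slc18a2* followed at 0.762. The other members had negative Pearson coefficients, from -0.73 for *Hnmt* and -0.65 for *Hrh3* to -0.32 for *Hrh2*. Their order changed by rank, with rho of -0.66 for *Hrh2*, -0.54 for *Hnmt*, -0.41 for *Hrh3* and -0.22 for *Hrh1*.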

How the data were processed

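RNA-seq was performed by the authors on 12 pools of dLGNs (NuGEN Universal Plus mRNA-seq kit, Illumina HiSeq, paired reads). They mapped the reads with STAR to the mouse RefSeq transcriptome (mm10 in the submitters' processing notes) and deposited RSEM expected counts for 24480 genes, not normalised. Of the deposited expected counts, 7.77% were not whole, and they were rounded here. Whether counting used strand is not given in the sources used here. Table columns name a line, a genotype and a number or letter, and were assigned to the 4 groups only.

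The members and the gene lists were chosen with earlier results of these data known. TMM, glmQLFit, glmQLFTest and FDR<0.01 follow the study (edgeR 4.0.16, R 4.3.3). Fitting each line by itself and the filter filterByExpr were chosen here, and p-values were adjusted over all tested genes (Benjamini-Hochberg). The study reported more DEGs in both lines than were called here, so the calls given are not the study's own. The difference between the mutants was the interaction in a fit over 12 libraries. SE is the log2 fold change divided by the square root of F. The p-values measure the spread between 3 pools a group, and each pool holds 3 animals. Lengths are those of GENCODE M21 transcripts matched to RefSeq. Named were, by rule, the 5 members in every library, *Sox2*, *Nr2f1* and *Rora*, all pathway genes called in either line, all mast cell markers and the 5 genes with the highest r to *Hdc* (log2 CPM, prior count 2); *Prph*, *Gal*, *Maob*, *Th*, the sex genes and the uncalled values beside them were added after their values were seen. Alternatives covered filter, normalisation, test (also DESeq2 1.42.0), replicate block, threshold and each library left out.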

Additional observations from a re-analysis of the deposited data

Results flagged for a closer look

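*Hdc* moved in opposite directions in the 2 lines: all 3 *Sox2* mutant libraries lay below and all 3 *Nr2f1* mutant libraries above the controls of their line, and the log2 fold changes differed by -3.37. The difference was not tested, because it was the reason for choosing the gene. For *Slc18a2* the interaction test of edgeR called a difference of -1.79 between the lines (SE 0.12, FDR 4.56e-06), with all 3 *Sox2* mutants lower than their controls. For *Plcb4* the same test gave -0.65 (SE 0.12, FDR 0.00715), and the call was lost in 10 of 18 other fits, each without 1 library.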

How the results depend on the processing

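*Hdc* kept its direction in all 15 other fits of the *Sox2* line, all 14 of the *Nr2f1* line and all 18 of their difference. Without single libraries its log2 fold change ranged from -3.05 to -2.67, from 0.50 to 0.64 and, for the difference, from -3.59 to -3.22. *Hdc* was chosen by its signs in these same libraries, so the refits are no independent support. In *Sox2* mutants *Hrh1* passed with the exact test (0.83), DESeq2 (0.83), FDR<0.05 (0.83) and edgeR's likelihood ratio test (0.83), and *Hrh3* with the exact test (0.99), DESeq2 (0.99), FDR<0.05 (0.99), the likelihood ratio fit (0.99) and the replicate block (1.15), all values being log2 fold changes. Without 1 library, *Hrh1* ranged from 0.72 to 0.95 and *Hrh3* from 0.79 to 1.13 in *Sox2* mutants, with neither called. Values near 0 turned: *Hrh2* in *Sox2* mutants without control 1 (0.10, range -0.28 to 0.10), *Hnmt* in *Nr2f1* mutants without control B (-0.04), mutant B (-0.091) or mutant C (-0.04), with a range of -0.091 to 0.17, and the difference of *Hrh1* without *Nr2f1* mutant B (-0.18, range -0.18 to 0.66). Of 200 values of the 4 tested members under other settings, 186 kept direction and side of the threshold.

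The 10 pathway genes called in *Sox2* mutants became 21 with FDR<0.05, 20 with the exact test, 18 with DESeq2, 20 with likelihood ratios and 16 in one fit over 12 libraries. They numbered 3 to 16 without 1 library: 4 without control 1, 3 without control 2, 16 without control 3, 5 without mutant 1 and 3 without mutant 4. The 4 in *Nr2f1* mutants became 8 with FDR<0.05 and 8 with DESeq2, and numbered 0 to 9 without 1 library: 0 without control B, 1 without control D, 0 without mutant A and 9 without mutant B. The 2 called for the difference numbered 1 to 2. *Slc18a2*, *Maoa* and *Plcb4* kept their calls in all 15 other fits of the *Sox2* line. Over all genes, the 1261 calls in *Sox2* mutants numbered 494 without control 2 and 2161 without control 3, 2468 with DESeq2 and 3095 with FDR<0.05. The 396 in *Nr2f1* mutants numbered 133 without mutant A and 868 without mutant B, 1112 with DESeq2 and 1154 with FDR<0.05, and the 231 for the difference 544 with DESeq2 and 538 with FDR<0.05. The cause was not tested, beyond the fewer libraries in each fit that left one out.

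Only numbers 1 and 3 are shared by *Sox2* controls and mutants, and the *Nr2f1* groups share only B, so a replicate block was fitted for the *Sox2* line alone. Deviations from the group means correlated at 0.18 between the libraries numbered 1 and at 0.16 between those numbered 3, over 15602 genes. Nothing says that the numbers mark litters, so they were not taken as pairs. The 7 pairs with different numbers had -0.28 to 0.15. The block gave 9 pathway genes and 1611 genes in all. Of the 10 called without it, 5 were lost, namely *Pdxk* (FDR 0.0305), *Itpr2* (0.0225), *Gnal* (0.109), *Adcy7* (0.0125) and *Gnai2* (0.0200), and 5 were kept. Of the 5 genes most like *Hdc*, 1 was kept with Spearman's rho.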
